A study of Mus musculus with 10 samples.

Results

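The chemokines that organise lymphoid tissue, together with CXCL16, were examined in the brains of mice whose back skin had been treated with Aldara cream. The group held 9 genes, namely the ligands Cxcl13, Cxcl16, Ccl19, Ccl21a and Ccl25 and the receptors Cxcr5, Cxcr6, Ccr7 and Ccr9. Every row of the array table whose annotation carried one of these symbols was taken, which gave 17 probesets (sets of array probes that report on 1 transcript) of 23410 with a gene symbol. Of the 17, 13 carried 1 symbol. The remaining 4 carried 7 symbols each, namely Ccl21a, Ccl21b, Ccl21c, Ccl21d and the predicted genes Gm1987, Gm13304 and Gm10591. These are referred to as Ccl21, since copies of the gene cannot be told apart on them. Ccl19 had 5 probesets, Ccl25 had 2, and the 6 genes Cxcl13, Cxcl16, Cxcr5, Cxcr6, Ccr7 and Ccr9 had 1 each. No filter on low values was applied, so all 17 were tested.

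RNA came from perfused whole brains of female C57BL/6 mice aged 6 to 8 weeks, with 1 Affymetrix mouse gene array per animal. The Aldara group (n = 5) received 80 mg of Aldara cream, which holds 5% imiquimod, a ligand of the RNA sensor TLR7, on shaved back skin every 24 h for 5 applications. The Control group (n = 5) received the same amount of an aqueous cream on the same schedule. The aqueous cream lacks both imiquimod and the isostearic acid of the Aldara vehicle, so effects of the drug and of its vehicle cannot be told apart in this comparison. Values are log2 expression values, and a log2 difference of 1 equals a doubling.

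Chemokines are small secreted proteins that guide cells carrying the matching receptor. CXCL13 is made by stromal cells of B cell follicles and draws in B cells and follicular helper T cells through CXCR5. CCL19 and CCL21 are made in the T cell zones and, in the case of CCL21, by lymphatic and high endothelial vessels, and both act through CCR7 on naive T cells and mature dendritic cells. CCL25 is a product of thymus and small intestine epithelium that acts through CCR9, and CXCL16 is a membrane-bound chemokine of macrophages and dendritic cells that acts through CXCR6 on activated T cells and natural killer T cells. In inflamed tissue these ligands can also appear outside lymphoid organs.

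The promoters of 3 ligands are given here because their probesets responded to Aldara in 3 different ways, namely a large increase, a small increase and a decrease. The decrease was measured on probesets that Ccl21a shares with other copies and cannot be assigned to Ccl21a. Each is the RefSeq sequence (GRCm38.p6) from 250 bases before to 50 bases after the annotated start, written 5′ to 3′ on the strand of the gene, with capitals marking a motif match. They lie at chr5:95956689-95956988 on the plus strand for Cxcl13, at chr4:42756316-42756615 on the minus strand for Ccl19 and at chr4:42773942-42774241 on the minus strand for Ccl21a.
Cxcl13: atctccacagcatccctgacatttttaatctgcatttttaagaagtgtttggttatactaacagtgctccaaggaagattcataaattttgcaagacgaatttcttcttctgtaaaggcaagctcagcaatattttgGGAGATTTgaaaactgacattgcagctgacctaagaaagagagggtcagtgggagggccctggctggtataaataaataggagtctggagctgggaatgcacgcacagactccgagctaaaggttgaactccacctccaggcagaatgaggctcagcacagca
Ccl19: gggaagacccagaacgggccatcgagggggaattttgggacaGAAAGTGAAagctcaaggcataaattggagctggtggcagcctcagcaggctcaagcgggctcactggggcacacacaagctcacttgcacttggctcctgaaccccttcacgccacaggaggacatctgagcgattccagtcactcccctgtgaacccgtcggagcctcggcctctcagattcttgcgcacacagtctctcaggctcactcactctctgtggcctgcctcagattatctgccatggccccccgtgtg
Ccl21a: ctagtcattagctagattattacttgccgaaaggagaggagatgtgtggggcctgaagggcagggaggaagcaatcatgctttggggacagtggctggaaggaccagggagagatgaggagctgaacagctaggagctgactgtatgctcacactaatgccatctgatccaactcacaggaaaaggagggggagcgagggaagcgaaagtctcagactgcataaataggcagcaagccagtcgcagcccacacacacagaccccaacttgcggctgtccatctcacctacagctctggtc

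The capitals in the Cxcl13 promoter mark GGAGATTT, which starts 113 bases before the gene's start. It matches GGAGANTT, the core of a kappa B type site recognised by the RelB form of NF-kB, the factor downstream of the lymphotoxin receptor. This motif was added after the promoters had been read, and 4.66% of the 32851 promoters in the table hold it. The capitals in the Ccl19 promoter mark GAAAGTGAA, which starts 208 bases before the start and matches GAAANNGAA, the core of the interferon-stimulated response element, held by 8.56% of promoters. The Ccl21a promoter held no match to either motif. No match to the gamma-activated sequence TTCNNNGAA (8.3% of promoters) or to the kappa B type motif GGGANNTTC (3.94%) was present in any of the 3. Motifs were searched on both strands, and a match is only a match of letters. Of the 9 genes, 6 had a promoter in the table, and those of Ccl25, Cxcr6 and Ccr9 held none of the 4 motifs.

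Of the 17 probesets, 8 were higher and 6 lower in Aldara-treated than in control brains at an adjusted p under 0.05 (limma, Benjamini-Hochberg adjustment over all 23410 probesets), and 3 did not pass. Across all probesets tested, 12.4% were higher and 21.0% were lower. The balance between the directions depended on the scaling of the arrays. In the values as deposited 2901 probesets were higher and 4926 lower, against 2299 and 9606 with the arrays shifted to a common median and 3833 and 2760 with the median difference set to 0. The groups did not overlap for 12 of the 17 probesets, against 25.8% of all probesets. Of these 12, 4 were Ccl19 and 4 were Ccl21 probesets, which are not independent measurements. Counts of member probesets are therefore not counts of separate results. On the brightest probeset the groups were separate for all 5 ligands and for none of the 4 receptors. At least 3-fold increases were seen for 2 of them, Cxcl13 and Cxcl16, against 0.786% of all probesets. By gene, taking the brightest probeset, 4 genes were higher (Cxcl13, Cxcl16, Ccl19 and Cxcr6), 2 were lower (Ccl21 and Ccl25) and 3 did not pass (Cxcr5, Ccr7 and Ccr9). All 5 ligands passed, and of the 4 receptors only Cxcr6 did, a call that was lost under several alternatives. In whole brain, a change in the number of cells that make a transcript and a change in the RNA per cell cannot be told apart.

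**Figure D1:**
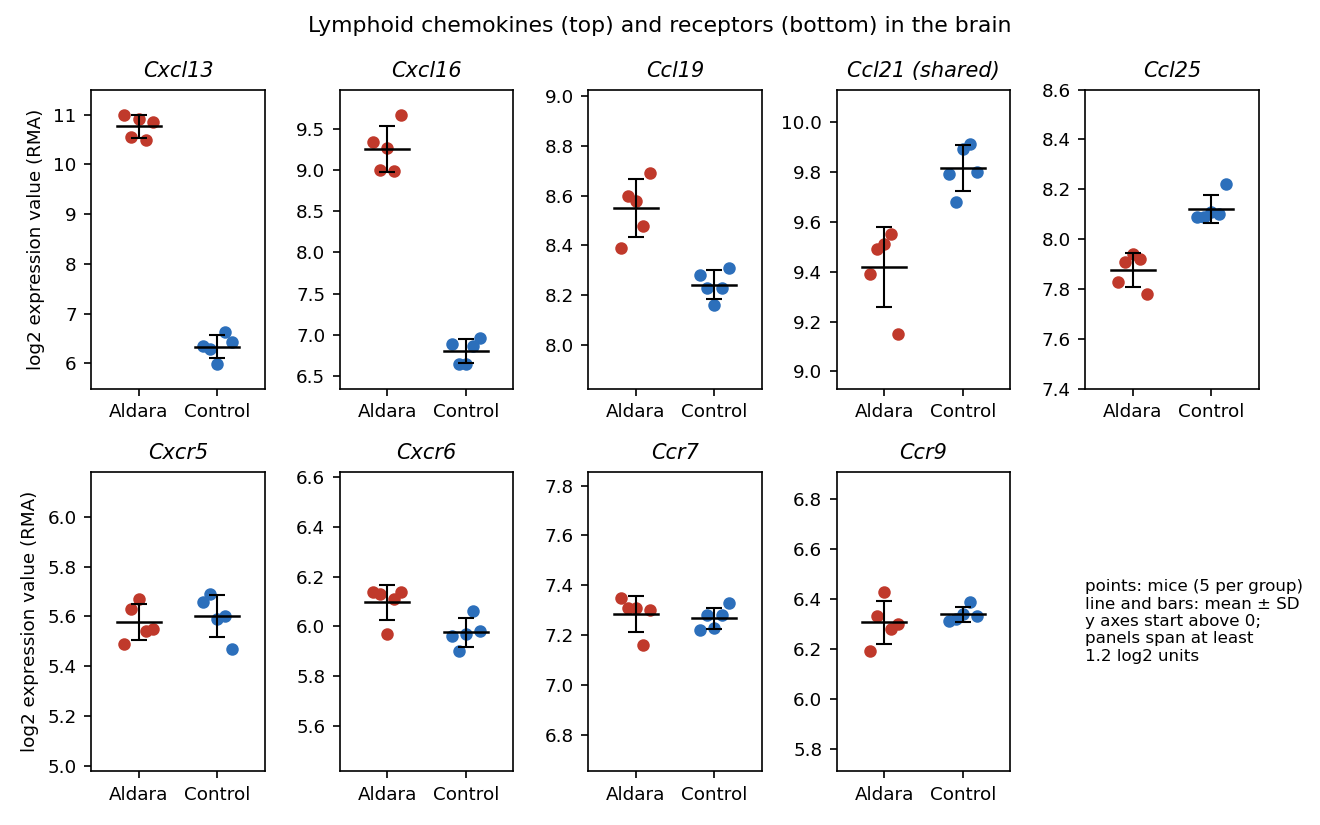
Log2 expression value of each gene in each mouse (points), with the group mean and SD (line and bars, n = 5 per group), for the 5 ligands in the top row and the 4 receptors in the bottom row. The groups are separate for all 5 ligands and overlap for all 4 receptors, and each panel has its own axis, which does not start at 0.

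Cxcl13 showed the fifth largest increase of all 23410 probesets. Its log2 values were 11.00, 10.55, 10.91, 10.48 and 10.86 in Aldara-treated mice (mean 10.76 ± 0.23, SD, n = 5) and 6.35, 6.30, 5.99, 6.64 and 6.43 in control mice (6.34 ± 0.23, n = 5). The lowest Aldara-treated mouse stood far above the highest control mouse, and the spread within the groups was alike. The log2 fold change was 4.42 (SE 0.12, adjusted p = 1.5e-10 from limma), which is a 21.4-fold increase with a 95% interval of 17.8 to 25.8. Its receptor Cxcr5, the receptor of follicular B and T cells, had values of 5.49, 5.63, 5.67, 5.54 and 5.55 in Aldara-treated mice, against 5.66, 5.69, 5.59, 5.60 and 5.47 in control mice. These values overlapped throughout. The log2 fold change of Cxcr5 was -0.03 (SE 0.05, adjusted p = 0.71 from limma), with an interval of -8.38% to 5.36% for the change in level. Every Cxcr5 value lay far below the array medians of 8.10 to 8.19. Whether this probeset exceeded background was not tested, so the interval may describe background rather than the receptor.

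Cxcl16 was the other ligand with a large increase. Its log2 values were 9.34, 9.00, 9.26, 8.99 and 9.67 in Aldara-treated mice (9.25 ± 0.28, SD, n = 5), against 6.89, 6.65, 6.65, 6.87 and 6.97 in control mice (6.81 ± 0.15, n = 5). The groups were again fully separate, and Aldara replicate 5 was the highest. The log2 fold change was 2.45 (SE 0.12, adjusted p = 2.1e-08 from limma), a 5.46-fold increase with an interval of 4.56 to 6.54, which ranked 67 of 23410. Cxcr6 had values of 6.14, 6.13, 5.97, 6.11 and 6.14 in Aldara-treated mice and 5.96, 5.90, 5.97, 6.06 and 5.98 in control mice. Aldara replicate 3 lay among the control mice, while the other 4 Aldara-treated mice were above all of them. The 1.09-fold increase (log2 fold change 0.12, SE 0.04, adjusted p = 0.037 from limma, p = 0.024 by the exact permutation test) was small. The call was lost with the arrays shifted to a common median (log2 fold change 0.07, adjusted p = 0.15), with the replicate number as a block (adjusted p = 0.054), and on leaving out any 1 of 8 of the 10 mice (adjusted p up to 0.083).

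Ccl19, a ligand of CCR7 in T cell zones, rose slightly. Its brightest probeset had values of 8.39, 8.60, 8.58, 8.48 and 8.69 in Aldara-treated mice and 8.28, 8.23, 8.16, 8.23 and 8.31 in control mice. The gap between the groups was narrow, but no values overlapped. The log2 fold change was 0.31 (SE 0.05, adjusted p = 0.00085 from limma), a 1.24-fold increase with an interval of 1.14 to 1.34. The 5 Ccl19 probesets had log2 fold changes of 0.27 to 0.37 with adjusted p of 0.00073 to 0.0048, and the groups were separate on 4 of the 5. They are not independent measurements, because near-identical copies in this stretch of chromosome 4 may share probes and RNA.

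Ccl21, the other ligand of CCR7, went the opposite way. Its values were 9.39, 9.49, 9.51, 9.55 and 9.15 in Aldara-treated mice, against 9.79, 9.68, 9.89, 9.91 and 9.80 in control mice. Every Aldara-treated mouse was below every control mouse, and Aldara replicate 5 was the lowest. The log2 fold change was -0.40 (SE 0.07, adjusted p = 0.0012 from limma), a 1.32-fold decrease that ranked 89 from the lowest of 23410. The 4 Ccl21 probesets differed by at most 0.0024 on any array, so they amount to 1 measurement, and it cannot be assigned to Ccl21a rather than to the other copies. Their receptor Ccr7 had values of 7.35, 7.31, 7.31, 7.16 and 7.30 in Aldara-treated mice and 7.22, 7.28, 7.23, 7.28 and 7.33 in control mice. These overlapped, with a log2 fold change of 0.02 (SE 0.04, adjusted p = 0.77 from limma) and an interval of -4.46% to 7.05%.

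Ccl25, the chemokine of thymus and small intestine, fell slightly after Aldara treatment. The brighter of its 2 probesets had values of 7.83, 7.91, 7.94, 7.92 and 7.78 in Aldara-treated mice, against 8.09, 8.09, 8.11, 8.10 and 8.22 in control mice. The groups were separate, as they were on the other probeset. The log2 fold changes were -0.24 (SE 0.04, adjusted p = 0.00055 from limma) and -0.26 (SE 0.05, adjusted p = 0.0014), and the brighter one corresponds to a 1.18-fold decrease. Its receptor Ccr9 had values of 6.19, 6.33, 6.43, 6.28 and 6.30 in Aldara-treated mice and 6.31, 6.32, 6.34, 6.39 and 6.33 in control mice. The Aldara-treated mice spread to both sides of the control mice. The log2 fold change of Ccr9 was -0.03 (SE 0.04, adjusted p = 0.57 from limma), with an interval of -7.91% to 3.87%.

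**Figure D2:**
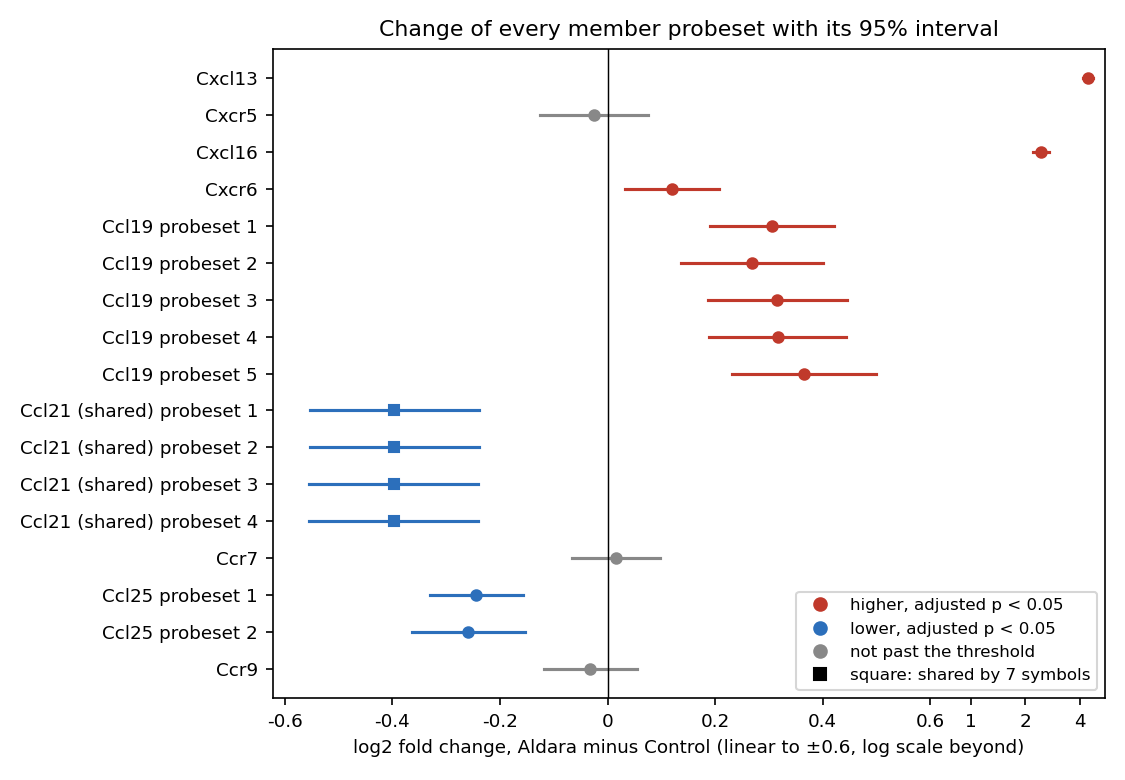
Log2 fold change of each of the 17 probesets, Aldara minus Control, with its 95% interval (5 mice per group), on an axis that is linear to 0.6 in either direction and logarithmic beyond. Cxcl13 at 4.42 and Cxcl16 at 2.45 lie far from the rest, the 5 Ccl19 probesets lie at 0.27 to 0.37, and the Ccl21 and Ccl25 probesets lie below 0.

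To ask whether each ligand changed by a different amount from its receptor, the difference in log2 value between the genes was formed for each mouse and compared between the groups by an exact two-sided permutation test, for which 0.0079 is the smallest p that 5 against 5 mice can give. Over 6 pairs with Benjamini-Hochberg adjustment, all 6 passed. Cxcl13 rose more than Cxcr5 by 4.45 (SE 0.16, exact p = 0.0079, adjusted p = 0.0095), and Cxcl16 more than Cxcr6 by 2.33 (SE 0.14, with the same p). The change of Ccl19 exceeded that of Ccr7 by 0.29 (SE 0.06, exact p = 0.016, adjusted p = 0.016), in 4 of 5 Aldara-treated mice above all control mice. The change of Ccl21 was below that of Ccr7 by 0.41 on the log2 scale (difference -0.41, SE 0.10, exact p = 0.0079, adjusted p = 0.0095), and that of Ccl25 was below that of Ccr9 (difference -0.21, SE 0.04, with the same p), in 5 of 5 Aldara-treated mice for each. Between the 2 strongly raised ligands, Cxcl13 rose more than Cxcl16 by 1.97 (SE 0.11, exact p = 0.0079, adjusted p = 0.0095). The opposite changes of Ccl19 and Ccl21 were set against each other after their values had been seen, and differed by 0.70 (SE 0.12, exact permutation p = 0.0079, not adjusted). These values do not tell which probesets exceeded background, and all 4 receptors lay below the array medians of 8.10 to 8.19.

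The 5 Aldara-treated mice did not rank alike for the different ligands. Against the mean of the control mice, Cxcl13 ran from 4.14 in replicate 4 to 4.66 in replicate 1, a range of 0.52 that was within the 0.64 seen among control mice. Cxcl16 ran from 2.19 in replicate 4 to 2.86 in replicate 5, a range of 0.68 against 0.32 among control mice. Replicate 5 was thus highest for Cxcl16 but not for Cxcl13. The same mouse had the largest increase of Ccl19 (0.45) and the largest decreases of Ccl21 (-0.66) and of the brighter Ccl25 probeset (-0.34). On the other Ccl25 probeset the largest decrease was in replicate 1 (-0.355), against -0.226 in replicate 5. Replicate 1 had the smallest increase of Ccl19 (0.15) but the next largest decrease of Ccl21 (-0.43). Without replicate 5, the log2 fold changes were 2.34 for Cxcl16, 0.27 for Ccl19, -0.33 for Ccl21 and -0.22 for Ccl25, and each still passed in limma (highest adjusted p = 0.0013).

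**Figure D3:**
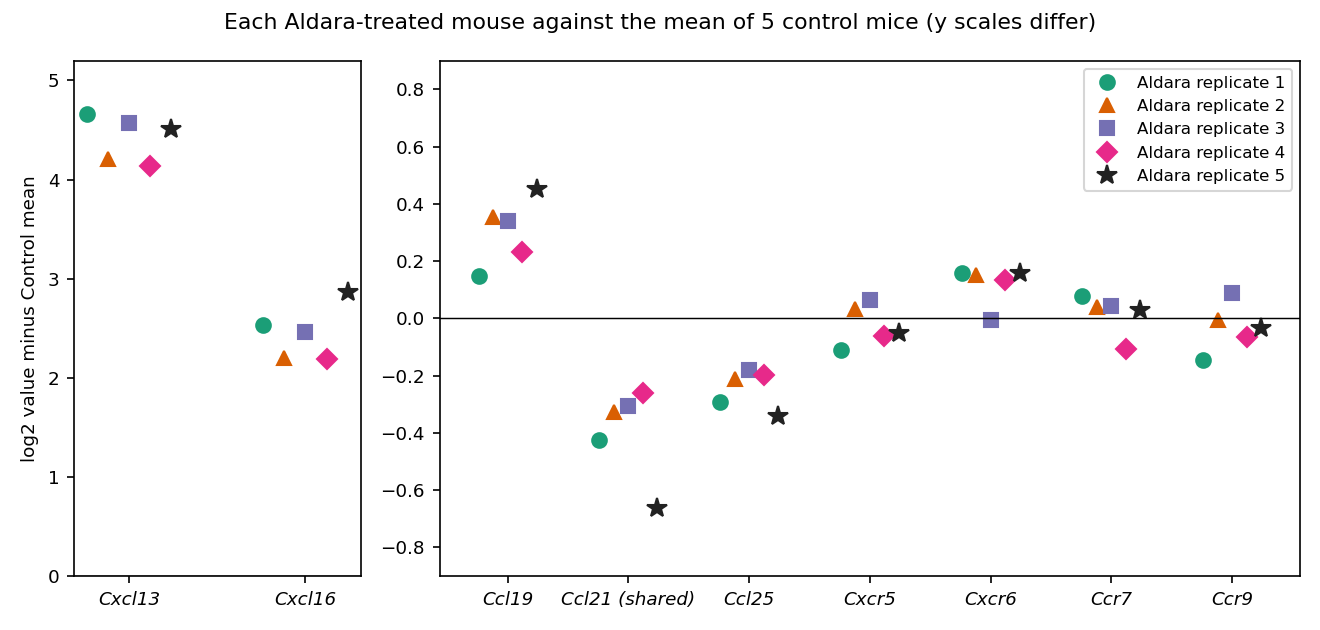
Log2 value of each Aldara-treated mouse (1 symbol per mouse, replicates 1 to 5) minus the mean of the 5 control mice, for each ligand and receptor, with separate scales for Cxcl13 and Cxcl16 (left) and for the other genes (right). Replicate 5 is highest for Cxcl16 and Ccl19 and lowest for Ccl21 and for Ccl25, of which only the brighter probeset is shown. The receptors lie within 0.2 of the control mean.

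Genes whose profile over the 10 mice lay nearest to that of Cxcl13 or Cxcl16 were found by the root mean square of the difference in log2 value, after each gene had its control mean subtracted, among 19937 other genes. Nearest to Cxcl13 were Wfdc17 (0.24), Ccl3 (0.25), Ms4a6c (0.26), Ms4a7 (0.31) and Ccl5 (0.34). Of these, Ccl3 and Ccl5 encode inflammatory chemokines, and Ms4a6c and Ms4a7 encode membrane proteins of macrophages. Nearest to Cxcl16 were Cyp4f18 (0.10), Gpnmb (0.14), Ifi27l2a (0.15), Tlr13 (0.15) and Ctss (0.16). Gpnmb is a glycoprotein of macrophages, Ifi27l2a is induced by interferon, Tlr13 senses bacterial RNA and Ctss encodes the lysosomal protease cathepsin S. Cyp4f18, like Cxcl16, was highest in Aldara replicate 5 (2.91 above the control mean) and lowest in replicate 4 (2.04). The measure is dominated by the size of the difference between the groups, and likeness of this kind carries no test.

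Genes that control how these chemokines are released or removed were taken next. CXCL16 is shed from the cell surface by the proteases ADAM10 and ADAM17, and atypical receptors take up chemokines without signalling. In this list 3 of 7 measured genes rose and 0 fell. For this list and those below, the shares over all probesets tested were 12.4% higher and 21.0% lower. Adam17 had a log2 fold change of 0.68 (SE 0.04, adjusted p = 3.3e-07 from limma), with values of 9.38 to 9.55 under Aldara, against 8.67 to 8.89 under control cream, and Adam10 had one of 0.25 (SE 0.03, 10.46 to 10.55 in Aldara-treated and 10.23 to 10.30 in control mice). The groups overlapped for neither. Ccrl2, which binds chemerin and is grouped with the atypical receptors, had one of 0.33 (SE 0.05). Ackr4, the scavenger of CCL19, CCL21 and CCL25, had a log2 fold change of -0.01 (SE 0.05, adjusted p = 0.84) and did not pass. The median log2 fold change of the list was -0.01, against -0.05 over all 19938 genes with a probeset of 1 symbol.

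The lymphotoxin and noncanonical NF-kB pathway, which drives Cxcl13, Ccl19 and Ccl21 in lymphoid stroma, had 9 of 20 measured genes higher and 0 lower, with a median log2 fold change of 0.11. The largest changes were those of receptors and of a B cell survival factor. Tnfrsf1b and Tnfrsf1a, the TNF receptors, had log2 fold changes of 1.11 (SE 0.06) and 0.84 (SE 0.04), and Tnfsf13b, which encodes the survival factor BAFF, had one of 1.11 (SE 0.07). Ltbr, the lymphotoxin beta receptor, had values of 7.94 to 8.04 under Aldara, against 7.56 to 7.77 under control cream, with a log2 fold change of 0.31 (SE 0.04, adjusted p = 8.5e-05 from limma). Its ligands did not pass. Lta had a log2 fold change of -0.03 (SE 0.07) and Ltb one of 0.06 (SE 0.04). Of the transcription factor that acts downstream, the Nfkb2 subunit rose (0.24, SE 0.04), whereas Relb (-0.07, SE 0.04) and the kinase Map3k14 (0.06, SE 0.03) did not pass.

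Genes of lymphoid stroma and high endothelial venules, the vessels through which lymphocytes enter lymph nodes, were mixed, with 5 of 14 measured genes higher, 3 lower and a median of -0.03. Adhesion and stromal genes made up most of the higher ones. Bst1, an ectoenzyme of stromal and myeloid cells, had a log2 fold change of 0.81 (SE 0.06), Vcam1 of 0.74 (SE 0.06), Icam1 of 0.58 (SE 0.05) and Pdpn (podoplanin) of 0.54 (SE 0.06). Il7, the T cell survival cytokine, had one of 0.09 (SE 0.03, adjusted p = 0.048 from limma) that was lost with the arrays shifted to a common median. Among the other genes of the list, Glycam1 (-0.02, SE 0.05), Madcam1 (-0.09, SE 0.05) and Cr2 (-0.04, SE 0.03) did not pass. They were named after their values had been seen. Chst4, a sulfotransferase of high endothelial venules, fell (-0.16, SE 0.04). The lymphatic endothelial genes Prox1 (-0.14, SE 0.04) and Lyve1 (-0.15, SE 0.05) were also lower, but neither call was kept with the median difference set to 0. Prox1 is also expressed by neurons.

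Among other cues that position lymphocytes, 3 of 11 measured genes were higher and 3 lower, with a median of -0.07. Over all probesets tested, 12.4% were higher and 21.0% lower. Ch25h, the enzyme that begins the synthesis of the B cell attractant 7α,25-dihydroxycholesterol, had values of 7.86 to 8.55 under Aldara, against 6.35 to 6.80 under control cream, a log2 fold change of 1.51 (SE 0.13, adjusted p = 3.5e-06 from limma). Hsd3b7, which degrades that attractant, was also higher (0.19, SE 0.05), Cyp7b1, which completes its synthesis, was lower (-0.12, SE 0.04, lost with the median difference set to 0), and its receptor Gpr183 did not pass (0.05, SE 0.04). Of the CXCL12 axis, the receptor Cxcr4 rose (0.94, SE 0.07) and Cxcl12 fell (-0.21, SE 0.04). S1pr1, the sphingosine phosphate receptor that governs exit from lymph nodes and is also found on astrocytes and endothelium, fell (-0.20, SE 0.05). In the gut homing list, 1 of 6 genes, the integrin chain Itga4, was higher (0.45, SE 0.05) and 0 were lower, with a median of -0.01, and Itgb7 (0.06, SE 0.06), Itgae (-0.0033, SE 0.03) and Ccr10 (-0.15, SE 0.06) did not pass.

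The other chemokine ligands and receptors show where these genes stood in the family. Of 32 other ligands measured, 12 were higher and 4 lower, and 5 were at least 3-fold higher. The 3 with the smallest p were Ccl3 (4.22, SE 0.10), Ccl5 (4.68, SE 0.13) and Ccl9 (2.18, SE 0.12), so Cxcl13 lay with the inflammatory ligands Ccl3 and Ccl5 in size. The 4 that were lower were Cxcl14 (-0.36, SE 0.04), Cx3cl1 (-0.22, SE 0.03), Cxcl12 (-0.21, SE 0.04) and Ccl17 (-0.20, SE 0.06). Each of these changes was smaller in size than that of Ccl21 (-0.40), and only that of Cxcl14 was larger than that of Ccl25 (-0.24). The call of Ccl17 was lost with the median difference set to 0. Of 14 other receptors, 4 were higher and 0 lower. These were Ccr2 (1.29, SE 0.12), Cxcr4 (0.94, SE 0.07), Cx3cr1 (0.72, SE 0.09) and Cxcr3 (0.31, SE 0.06), receptors of monocytes, leukocytes in general, microglia and activated T cells. The medians of both lists, -0.01 and 0.02, were close to that of all genes.

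**Figure D4:**
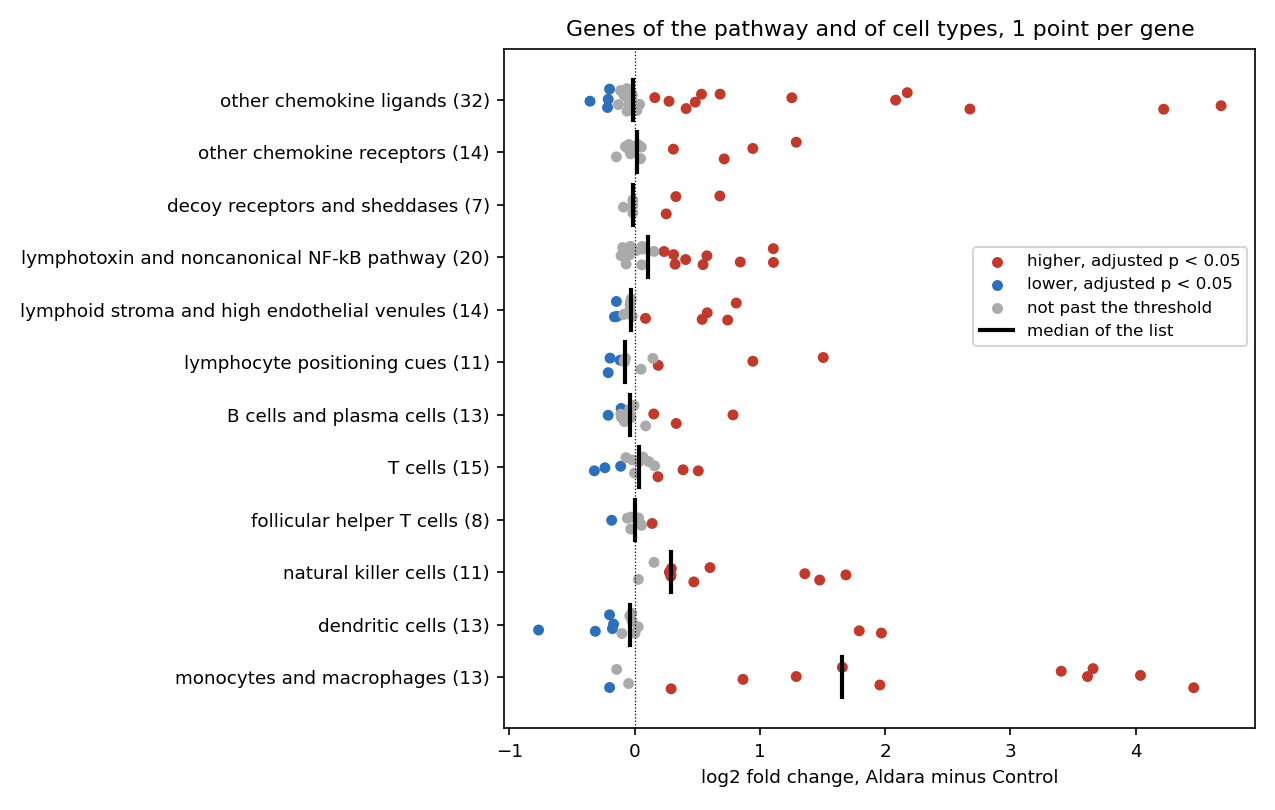
Log2 fold change of each measured gene, Aldara minus Control (1 point per gene, number of genes in brackets), for lists of the chemokine pathway and of leukocyte types, with the median of each list as a bar. The monocyte and macrophage list lies highest with a median of 1.66, while the medians of the B cell, T cell and follicular helper T cell lists lie between -0.04 and 0.03.

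Markers of the cells that carry or make these molecules were measured on the same arrays. B cells are the main carriers of CXCR5, and 3 of 13 measured B cell and plasma cell genes were higher and 2 lower, with a median of -0.04 and list means of 6.52 to 6.64 under Aldara, against 6.49 to 6.58 under control cream. Over all probesets tested, 12.4% were higher and 21.0% lower. Cd79b (0.79, SE 0.09), Jchain (0.33, SE 0.06) and Cd22 (0.15, SE 0.04) were higher. The B cell genes Ms4a1 (-0.01, SE 0.04), Cd79a (-0.08, SE 0.06) and Pax5 (-0.11, SE 0.06) did not pass, and the plasma cell genes Tnfrsf17 (-0.21, SE 0.04) and Sdc1 (-0.11, SE 0.03) were lower, the last call being lost with the median difference set to 0. Of 8 genes of follicular helper T cells, which also carry CXCR5, Bcl6 was higher (0.14, SE 0.04, lost with the arrays shifted to a common median), Tox2 was lower (-0.18, SE 0.03) and 6 did not pass, Pdcd1 and Il21 among them, with a median of 0.00.

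T cells carry CCR7 when naive and CXCR6 when activated. The counts of this paragraph stand beside 12.4% higher and 21.0% lower over all probesets tested. Of 15 T cell genes, 3 were higher, Cd3g (0.51, SE 0.08), Cd8b1 (0.39, SE 0.03) and Cd8a (0.19, SE 0.05), and 3 were lower, Cd4 (-0.32, SE 0.04), Bcl11b (-0.24, SE 0.05) and Cd6 (-0.11, SE 0.04), with a median of 0.03 and list means of 6.66 to 6.74 under Aldara, against 6.60 to 6.71 under control cream. Cd4 is also expressed by microglia and macrophages and Bcl11b by neurons, and the call of Cd6 was lost with the median difference set to 0. Of 11 natural killer cell genes, 9 were higher and 0 lower, with a median of 0.29 and list means of 6.79 to 7.11 against 6.20 to 6.33 in control mice, with the smallest p for Gzma (1.36, SE 0.09), Nkg7 (1.69, SE 0.15) and Il2rb (0.60, SE 0.06), while Gzmb had a log2 fold change of 1.48 (SE 0.22). Cytotoxic T cells share many of these. Dendritic cells use CCR7 when mature, and of 13 of their genes 2 were higher, Bst2 (1.97, SE 0.17) and Itgax (1.79, SE 0.13), and 5 were lower, Siglech (-0.77, SE 0.07), Cd209a (-0.31, SE 0.06), Fscn1 (-0.18, SE 0.03), Zbtb46 (-0.17, SE 0.04) and Ccl17, with a median of -0.04. Bst2 is induced by interferon, Itgax is shared with macrophages, Siglech is a microglial gene in the brain and Fscn1 is shared with neurons.

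The monocyte and macrophage list moved most by its median. Of its 13 measured genes, 10 rose, 7 by at least 3-fold, 1 fell (Cd163, -0.20, SE 0.04) and 2 did not pass, with a median of 1.66. The mean log2 value over the list was 8.48 to 8.77 under Aldara, against 6.68 to 6.78 under control cream. Lyz2 (3.62, SE 0.09), Adgre1 (3.66, SE 0.09) and Ms4a6c (4.46, SE 0.12) had the smallest p. Macrophages and dendritic cells are known sources of CXCL16, and macrophages and microglia can make CXCL13 in inflammation, but the part of these cells in the change of either gene was not tested.

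Neuronal and glial genes were measured as a check on the tissue. Snap25, a synaptic gene of neurons, averaged 13.26 ± 0.04 in Aldara-treated mice and 13.36 ± 0.03 in control mice (SD, n = 5 each), on a scale whose highest value was 14.56, so neuronal transcripts were abundant in both groups. Of 8 neuronal genes, 7 were lower and 0 higher with a median of -0.13. The changes were small, as for Rbfox3 (-0.19, SE 0.03), Slc17a7 (-0.21, SE 0.03) and Gad1 (-0.20, SE 0.04), and only 4 remained called with the median difference set to 0. Of 9 glial genes 4 were higher, Gfap (1.73, SE 0.04), Tmem119 (0.86, SE 0.08), Aldh1l1 (0.36, SE 0.07) and Aqp4 (0.36, SE 0.03), and 2 lower, Slc1a3 (-0.25, SE 0.03) and Mbp (-0.21, SE 0.03), with a median of 0.12. Ccl21 (-0.40) and Ccl25 (-0.24) also fell, as did 21.0% of all probesets. Whether these decreases share a cause with those of the neuronal genes was not tested. Of 7 genes of thymus and small intestine epithelium, the sources of CCL25, Vil1 was higher (0.09, SE 0.03), Lgr5 lower (-0.35, SE 0.12), each lost under another scaling, and 5 did not pass, the thymic factors Foxn1 and Aire among them, with a median of -0.07. The 2 erythrocyte genes measured, Slc4a1 and Alas2, both had a log2 fold change of -0.05 and did not pass.

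The genes on either side of each member in the RefSeq gene order, 3 on each side, were looked at after the values had been seen. Across all probesets tested, 12.4% were higher and 21.0% were lower. Around Cxcl16, 3 of 6 were higher, namely Arrb2 (0.56, SE 0.04), which encodes an arrestin of chemokine receptors, Zmynd15 (0.54, SE 0.05) and Med11 (0.10, SE 0.03). None of the 6 genes around Cxcl13 was higher, and Fras1 (-0.30, SE 0.03) and Ccng2 (-0.10, SE 0.03) were lower. Ccl19 and Ccl21a are themselves neighbours, and of the 6 genes around Ccl19, 3 were lower, namely Fam205c (-0.13, SE 0.04), Phf24 (-0.23, SE 0.03) and Dctn3 (-0.13, SE 0.04), and 3 did not pass. Cxcr6 and Ccr9 lie within a cluster of chemokine receptors on chromosome 9, in which Xcr1 (0.00, SE 0.05), Ccr1 (0.03, SE 0.05), Ccr1l1 (0.05, SE 0.03) and Ccr3 (-0.05, SE 0.04) did not pass and Ccr2, farther along, rose (1.29, SE 0.12). Of the 6 genes around Ccr7, 1 was higher, Top2a, a gene of dividing cells (1.62, SE 0.09), and Igfbp4 and Tns4, which lie between it and Ccr7, did not pass. Around Ccl25, 3 of 6 were lower, namely Ctxn1 (-0.28, SE 0.04), Cers4 (-0.14, SE 0.04) and Timm44 (-0.13, SE 0.04), and Shcbp1 was higher (0.23, SE 0.05). Around Cxcr5, 3 of 6 were lower, namely Phldb1 (-0.18, SE 0.03), Treh (-0.12, SE 0.04) and Bcl9l (-0.11, SE 0.03), and 0 were higher.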

How the data were processed

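The deposited table held log2 expression values of 28856 probesets on 10 arrays, which the authors made with RMA 16 (background correction, quantile normalisation and probe summary) in GeneSpring GX; RMA is also named in the submitters' processing notes. The GeneSpring version, array annotation release and genome build are not given in the sources used here. Probesets were named by the platform annotation, where 21789 probesets had 1 symbol, 1621 several and 5446 none. The 23410 with a symbol were tested, without a filter on low values.

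The comparison of Aldara with Control used lmFit and eBayes of limma 3.58.1 in R 4.3.3, without a block, with Benjamini-Hochberg adjustment over all probesets tested, and passed at an adjusted p under 0.05. Single genes and pairs were also compared by exact two-sided permutation over all 252 relabelings. The replicate numbers gave no reason to pair mice. For lists, 1 probeset per gene (the brightest, with 1 symbol) was used. Array medians were 8.16 to 8.19 in Aldara and 8.10 to 8.14 in Control, arrays correlated at 0.995 to 0.999 within Aldara, 0.998 to 0.999 within Control and 0.980 to 0.988 between groups, and 5 arrays per group limit the precision. Labels call the arrays biological replicates, and no batch is given in the sources used here.

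The members, the 17 lists and the tests were chosen with earlier results of these data known. Named are all members, the 3 genes of each list with the smallest p, all called genes where a list had 5 or fewer in a direction, and the 5 nearest profiles. Further genes (Ackr4, Ltbr, Lta, Ltb, Nfkb2, Relb, Map3k14, Glycam1, Madcam1, Cr2, Gpr183, Itgae, Ms4a1, Cd79a, Pax5, Pdcd1, Il21, Foxn1, Aire, Snap25, Gzmb, Ccr3 and the neighbours) were named after their values were seen. Some genes stand in 2 lists (Ccl17, Ccl20, Ccl22, Ccl28, Cxcl12, Ccr2, Ccr6, Ccr10, Cxcr4, Xcr1, Icos and Cd40lg). The fit was tested on simulated data. Alternatives covered scaling, the probesets tested, a filter on dim probesets, the prior, the methods' t-test, the replicate block, the mean of a gene's probesets and leaving out each array. Of the paper's other measurements none was analysed here.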

Additional observations from a re-analysis of the deposited data

Results flagged for a closer look

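In 21 of the 180 groups of 5 arrays looked at (members, list means and named genes), 1 mouse stood apart, its gap to the nearest other mouse taking up over 0.71 of the group's range; chance marks about 1 in 20 groups. Among the members, 2 receptors and 1 ligand were marked. Cxcr6 was lowest in Aldara replicate 3 (share of the range 0.845), Ccr7 was lowest in Aldara replicate 4 (0.736), and the brighter Ccl25 probeset was highest in Control replicate 5 (0.842).

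Aldara replicate 5 stood apart for Ccr2 (0.798), Nkg7 (0.783), Ccl5 (0.766), Vcam1 (0.743) and Il2rb (0.844) and for the mean of the natural killer cell list (0.755), in which it was the highest, and for Cd79b (0.783), in which it was the lowest, at 7.71, where the other Aldara-treated mice had 8.10 to 8.20. Cd79b was thus lowest in the Aldara-treated mouse in which the other 5 genes were highest, and 1 gene does not stand for B cells. Other Aldara-treated mice stood apart for the mean of the other chemokine receptors (replicate 4 lowest, 0.724), Tnfrsf1a (replicate 4 lowest, 0.736), Ccrl2 (replicate 1 lowest, 0.751), Cd8b1 (replicate 3 highest, 0.755) and Vil1 (replicate 2 highest, 0.73). Control mice stood apart for the means of the decoy receptor and sheddase list (replicate 1 lowest, 0.723), the dendritic cell list (replicate 4 highest, 0.786) and the glial list (replicate 5 highest, 0.885), and for Adam10 (replicate 3 highest, 0.801), Itgb7 (replicate 5 lowest, 0.728) and Gfap (replicate 1 lowest, 0.777).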

How the results depend on the processing

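Of the fold changes of the brightest probeset of each member recomputed under the alternatives, 156 kept their side of the threshold. The other 11 were no longer past it, all 11 of them of Cxcr6. No gene that passed changed direction, but the 3 that did not pass changed sign under some scalings. With the median difference set to 0, Cxcr5 went from -0.025 to 0.016 and Ccr9 from -0.032 to 0.009. With the arrays shifted to a common median, Ccr7 went from 0.016 to -0.032. For the 8 other member probesets, all 148 recomputed fold changes kept their direction and their side of the threshold. For Cxcr6 the log2 fold change was 0.072 with the arrays shifted to a common median (adjusted p = 0.15 from limma), 0.12 by the methods' t-test (adjusted p = 0.056) and 0.12 with the replicate block (adjusted p = 0.054), and 0.102 to 0.151 on leaving out each mouse in turn, where it passed only when Aldara replicate 3 or Control replicate 4 was left out. The 84 recomputed differences between pairs kept their side. The replicate block changed no other member's call. In the lists it gave 0 higher, in place of 1, for follicular helper T cells and for thymus and gut epithelium, and 1 lower, in place of 0, in the gut homing and other receptor lists. Same-numbered mice did not deviate together (correlations -0.11 to 0.25), so the numbers were not taken as pairs. Probesets lower numbered 9606 with a common median and 2760 with the median difference set to 0, against 4926, while member probesets lower stayed at 6 in both. With only probesets of 1 symbol, 2 member probesets were lower, since the 4 shared Ccl21 probesets drop out by construction. Of 640 recomputed list counts, 57 moved by over 1.5 times or to or from 0. Keeping only the brighter probesets tests fewer genes, and gave 2 higher in the lymphotoxin list, 3 among the other ligands and 5 among monocyte and macrophage genes. It gave 2 higher and 1 lower in the stroma list, 0 higher among positioning cues, 1 higher among the other receptors, 0 higher and 1 lower among T cell genes, and 1 higher and 2 lower among dendritic cell genes. A common median gave 3 lower in the lymphotoxin list, 5 among positioning cues, 2 among the other receptors and 4 among B cell genes, and a median difference of 0 gave 1 lower in each of the stroma and B cell lists. The calls of Lyve1, Ccl17, Cd6, Bcl6 and Lgr5 were also lost by the methods' t-test. The count of 1 higher for follicular helper T cells fell to 0 when Aldara replicate 2, Aldara replicate 4, Control replicate 4 or Control replicate 5 was omitted, and those for thymus and gut epithelium were 0 in 2 (higher) and 6 (lower) of the 10 fits that left out a mouse. Leaving out Aldara replicate 4 gave 2 lower monocyte and macrophage genes, leaving out Control replicate 2 gave 1 lower in the lymphotoxin list, and leaving out Aldara replicate 2 or Control replicate 5 gave 1 lower in each of the gut homing and other receptor lists. The cause of these moves was not tested. The number of arrays limits the precision.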
